A study of Mus musculus with 6 samples.

Results

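The epidermal differentiation complex is a cluster of neighbouring genes on mouse chromosome 3 whose products build and serve the cornified layer, the dead outer sheet of the epidermis. In dorsal skin of Bmal1-/- mice in telogen, when hair follicles rest, no probe set of the complex differed from Bmal1+/- skin at an adjusted p under 0.05. The genes of the complex lay slightly higher in Bmal1-/- skin, with a median log2 fold change of 0.13, and the size of that shift depended on which mouse was counted. The complex was read through 62 of the 35557 probe sets of the array. They were chosen by gene symbol: Lce, Sprr and S100a genes with a number, Flg genes, and Lor, Ivl, Crct1, Rptn, Hrnr, Tchh, Tchhl1, Crnn, Pglyrp3 and Pglyrp4. Of these, 58 carry 1 symbol and name 57 of the 19938 genes that the array reads with a probe set of their own, all 57 on chromosome 3, and S100a11 has a pair of probe sets. The other 4 carry several symbols of near-identical Lce3 or Sprr2 genes and name no single gene. Of these, 2 Sprr2 probe sets hold identical values and are counted separately throughout. Flg has no probe set of its own in the platform annotation and was not analysed here.

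The study asked how loss of the circadian transcription factor BMAL1, which works as a pair with CLOCK, changes gene expression in skin. RNA of whole dorsal skin from 3 Bmal1-/- mice and from 3 Bmal1+/- littermates was hybridised to mouse gene arrays, 1 array per mouse. All 6 mice were labelled postnatal day 22 and staged as telogen, and another label gives day 23 for Bmal1+/- replicate 1, which was also the only male. The line is on a C57BL/6J background, the mutation is carried in every tissue, and the Bmal1+/- mice carry 1 mutant allele too, so the loss of both alleles is compared with the loss of 1. The targeted gene, listed as Arntl, had intensities of 569, 609.8 and 664 in Bmal1-/- skin, against 325, 364.5 and 355.5 in Bmal1+/- skin. Whether these probes fall inside the deletion was not given in the sources used, and the genotype labels cannot be checked with them. The clock output gene Dbp had 209.9, 220.5 and 221 in Bmal1-/- skin, against 1378, 1536 and 1148 in Bmal1+/- skin. The sex labels held: Xist, which marks the inactive X chromosome, had 7.975 in Bmal1+/- replicate 1 and 4826 to 5271 in the other mice. In the female mice, the Y-linked genes Uty and Kdm5d still had 18.85 to 36.9 and 88.55 to 120.7. Intensities of that size may therefore be background.

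Keratinocytes that leave the basal layer replace their membrane with the cornified envelope, a shell of proteins that transglutaminases join by cross-links. Loricrin and involucrin are its classical precursors, and the small proline-rich (SPRR) and late cornified envelope (LCE) proteins are cross-linked into it as well. Filaggrin bundles keratins, and the S100 proteins are small calcium sensors, some of which also act against microbes. Whole skin was measured, so a larger cornifying compartment and more RNA per cell cannot be told apart.

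The deposited intensities are linear, and each log2 fold change is Bmal1-/- minus Bmal1+/- of log2(intensity + 16). That scale understates the change of dim genes. The test was limma's moderated linear model over the 23410 probe sets with a gene symbol, two-sided, with Benjamini-Hochberg adjustment. None of the 62 probe sets was higher and none was lower at an adjusted p under 0.05, a threshold passed in the higher direction by 0.0982% and in the lower direction by 0.132% of all probe sets tested. The lowest adjusted p of the complex was 0.36, for Lce6a, and the lowest under any of 18 alternative settings was 0.11, for Sprr2b. At an unadjusted p under 0.05, 10 probe sets (16.1%) were higher in Bmal1-/- skin, where 4.17% of all tested were, and 0 were lower, where 4.6% of all tested were. The 10 were Lor, Ivl, Flg2, Lce1j, Lce6a, Sprr1b, Sprr2b, Sprr2f, Sprr2j-ps and S100a7a. A test built after Cyber-T likewise gave 0 at an adjusted p under 0.05, and 10 higher and 0 lower at an unadjusted p under 0.05. The log2 fold change was above 0 for 50 of the 62 (80.6%), against 54.7% of all tested. The median was 0.13 over the complex and 0.01 over all tested.

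For 55 of the 62 probe sets, the 95% confidence interval of the log2 fold change lay within 1.5-fold in both directions. The exceptions were Lce3a, Lce3e, Lce3f, Sprr2b, Crnn, Rptn and Tchh. All 3 Bmal1-/- values lay above all 3 Bmal1+/- values for 9 probe sets (14.5%), against 6.99% of all tested. These were Lor, Ivl, Lce1b, Lce6a, Sprr2d, Sprr2e, Sprr2f, Sprr2j-ps and S100a7a. All 3 Bmal1-/- values lay below all 3 Bmal1+/- values for 3 probe sets (4.84%), against 7.68% of all tested, namely Lce3b and both probe sets of S100a11. For a single gene, an exact permutation test of 3 mice against 3 cannot give a two-sided p below 0.1.

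The median log2 fold change was 0.16 for the 16 Sprr probe sets, 0.10 for the 20 Lce probe sets and 0.01 for the 15 S100a probe sets. It was 0.15 for the 6 genes of the S100-fused type, 0.17 for Lor, Ivl and Crct1, and 0.16 for Pglyrp3 and Pglyrp4. Above 0 were 16 of 16 Sprr, 16 of 20 Lce and 8 of 15 S100a probe sets. The differences between families were not tested. Along the chromosome, every probe set with 1 gene symbol from S100a7a through Lce1b, a stretch that holds Pglyrp4, Pglyrp3, Lor, the Sprr genes, Ivl and Lce6a, had a log2 fold change above 0. Of these, S100a8 and Sprr2g were below 0 under at least 1 alternative setting. So were the 3 Sprr2 probe sets with several symbols, which had log2 fold changes of 0.03, 0.01 and 0.01. The ends of the stretch were set by the signs themselves, so it is a description only. The genes next to its ends, S100a6 and Lce1a2, had log2 fold changes of -0.03 and -0.01. The other S100a genes, which lie at the ends of the cluster, ran from -0.14 (S100a14) to 0.23 (S100a2).

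**Figure D1:**
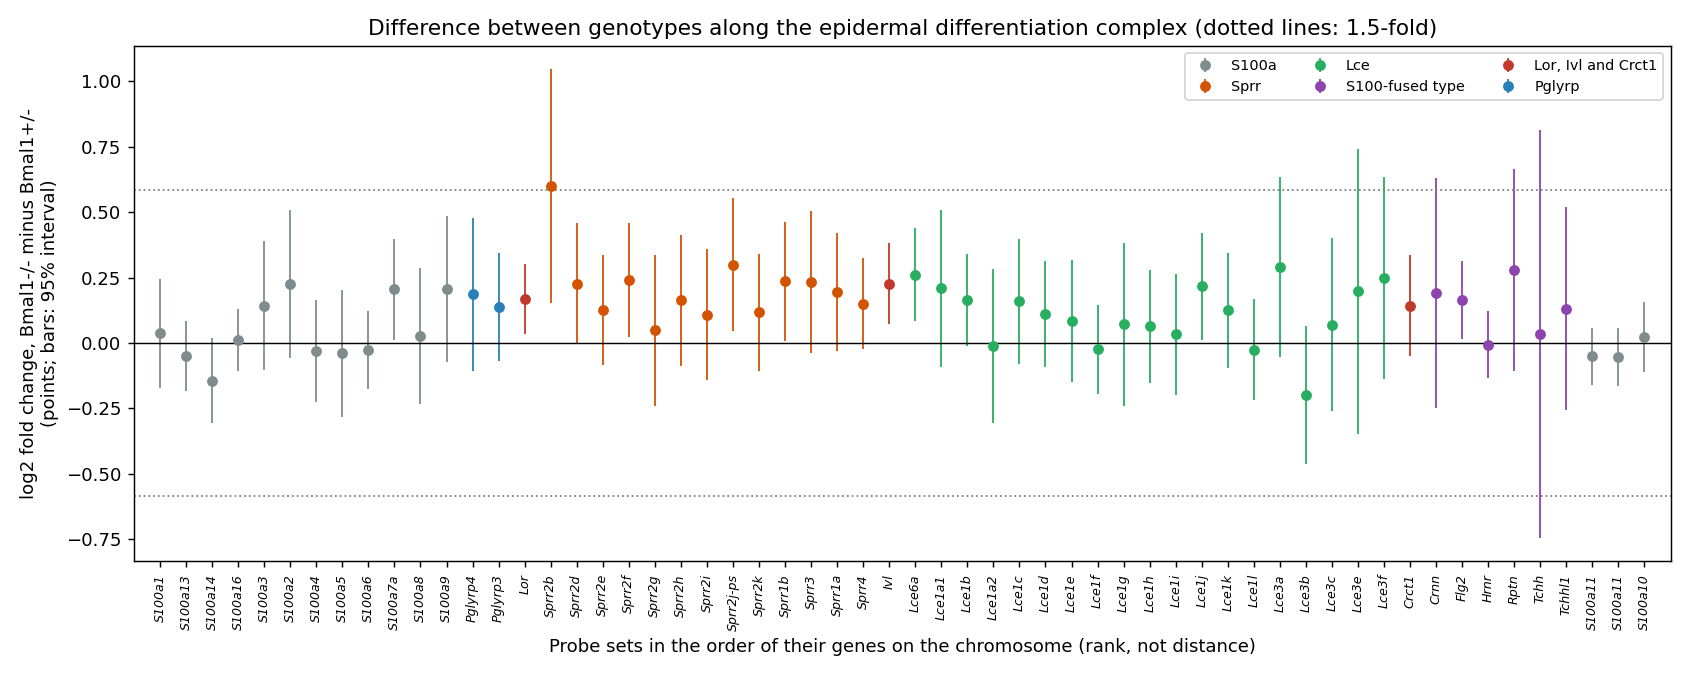
Log2 fold change (Bmal1-/- minus Bmal1+/-, vertical axis) of the 58 probe sets with 1 gene symbol, in the order of their genes on the chromosome (horizontal axis, rank and not distance), coloured by family. Points are estimates from 3 mice of each genotype, bars are 95% confidence intervals and dotted lines mark 1.5-fold; most intervals cross 0, and Sprr2b, at 0.60, is the highest point.

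Loricrin, the main protein of the mouse cornified envelope, and involucrin, the scaffold on which the envelope begins, were among the lowest p-values of the complex. Lor had intensities of 7013, 6942 and 6796 in Bmal1-/- skin, against 5886, 5972 and 6621 in Bmal1+/- skin. All 3 Bmal1-/- values were above all 3 Bmal1+/- values. The log2 fold change was 0.17 (SE 0.06, 95% confidence interval 0.04 to 0.30, limma adjusted p = 0.45). Ivl had 1373, 1314 and 1246 in Bmal1-/- skin, against 1037, 1129 and 1191 in Bmal1+/- skin. The groups again did not overlap, and the log2 fold change was 0.23 (SE 0.07, 95% confidence interval 0.07 to 0.38, limma adjusted p = 0.37). Crct1, which encodes a small cysteine-rich protein of the complex, had 2375, 2771 and 2572 in Bmal1-/- skin, against 2145, 2225 and 2630 in Bmal1+/- skin. Here Bmal1+/- replicate 3 lay inside the Bmal1-/- range, and the log2 fold change was 0.14 (limma adjusted p = 0.67). Leaving out each mouse in turn kept Lor between 0.14 and 0.22 and Ivl between 0.17 and 0.27.

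The promoters of Lor and Ivl are shown because both hold TGANTCA and TATAAA, which were searched for in all windows. Each window runs from 250 bases before to 50 bases after the RefSeq start site (build GRCm38.p6), 5′ to 3′ on the strand of the gene. It lies at chr3:92083093-92083392 for Lor and at chr3:92573686-92573985 for Ivl, both on the minus strand. Capitals mark TGANTCA, the consensus of the AP-1 transcription factors, and TATAAA, the TATA motif.
Lor: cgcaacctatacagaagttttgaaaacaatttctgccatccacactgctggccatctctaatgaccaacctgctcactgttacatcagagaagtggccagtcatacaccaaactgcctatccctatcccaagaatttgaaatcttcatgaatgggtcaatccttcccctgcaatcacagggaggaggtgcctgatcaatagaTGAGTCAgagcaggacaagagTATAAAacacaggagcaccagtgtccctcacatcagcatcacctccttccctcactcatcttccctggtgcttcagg
Ivl: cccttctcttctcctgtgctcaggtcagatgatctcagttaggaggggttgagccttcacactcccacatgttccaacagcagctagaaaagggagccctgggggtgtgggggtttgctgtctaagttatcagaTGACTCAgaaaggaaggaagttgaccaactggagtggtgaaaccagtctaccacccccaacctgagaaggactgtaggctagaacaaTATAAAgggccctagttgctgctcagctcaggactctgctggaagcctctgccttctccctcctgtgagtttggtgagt
In Lor, TGANTCA starts 48 bases and TATAAA 27 bases before the start site, and in Ivl they start 116 and 29 bases before it. Windows were found for 52 genes named by the 62 probe sets, genes of the probe sets with several symbols among them, 56 windows in all. TGANTCA, searched on both strands, was in 17 of them (30.4%), against 7.81% of 32851 RefSeq windows of the same length, and TATAAA was in 22 (39.3%), against 13.6%. The E-box CACGTG, which CLOCK and BMAL1 bind, was in 3 (5.36%), against 7.15%, and CCAAT was in 13 (23.2%), against 37.4%. TATAAA was added to the search after the other results were known. A match describes the letters of the window and is not a binding site.

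The genes of the S100-fused type encode large repeat proteins that begin with an S100 domain and associate with keratin filaments or with the envelope. Flg2, filaggrin 2, had intensities of 7483, 7712 and 6969 in Bmal1-/- skin, against 6247, 6420 and 7117 in Bmal1+/- skin. Only Bmal1+/- replicate 3 reached the Bmal1-/- range, and the log2 fold change was 0.16 (SE 0.07, 95% confidence interval 0.02 to 0.31, limma adjusted p = 0.51). Hrnr, hornerin, a filaggrin-like protein, had 6041, 6412 and 5872 in Bmal1-/- skin, against 6187, 5896 and 6323 in Bmal1+/- skin. The groups overlapped fully, and the log2 fold change was -0.01, with a 95% confidence interval of -0.13 to 0.12. Repetin (Rptn), another protein of this type, had 337, 433 and 347 in Bmal1-/- skin, against 240, 280.1 and 409 in Bmal1+/- skin. Its log2 fold change of 0.28 (limma adjusted p = 0.68) came with a 1.7-fold range among the Bmal1+/- mice. Crnn (cornulin) and Tchhl1 (a trichohyalin relative) had log2 fold changes of 0.19 and 0.13, with overlapping groups.

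Trichohyalin (Tchh), a structural protein of the inner root sheath and of the hair medulla, had the widest range among the Bmal1+/- mice, 3.53-fold, of all members except Lce3e. It had intensities of 245.5, 246 and 333.5 in Bmal1-/- skin, against 150, 229 and 530.5 in Bmal1+/- skin. Bmal1+/- replicate 3 was the highest of the 6 mice and Bmal1+/- replicate 1 the lowest, so that the Bmal1-/- values lay inside the Bmal1+/- range. The log2 fold change of 0.03 had a 95% confidence interval of -0.75 to 0.81. It was -0.35 without Bmal1+/- replicate 1, -0.07 without Bmal1+/- replicate 2, -0.10 without Bmal1-/- replicate 3 and 0.51 without Bmal1+/- replicate 3. Inner root sheath keratins, picked for this comparison after their values were seen, had the same mouse at the top. Krt71 had 135, 166 and 239.8 in Bmal1-/- skin, against 129, 161 and 314 in Bmal1+/- skin. Krt27 had 106, 119 and 175 in Bmal1-/- skin, against 80.0, 100.2 and 234 in Bmal1+/- skin. For hair shaft and inner root sheath, 12 genes were measured, with 0 called and none at 0. Their summed intensity was 1584 to 1870 in Bmal1-/- skin and 1451 to 2130 in Bmal1+/- skin. Dsg4 among them had only 70.2 to 111, a level that may be background. The part of hair follicle RNA in the Tchh values was not tested.

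**Figure D2:**
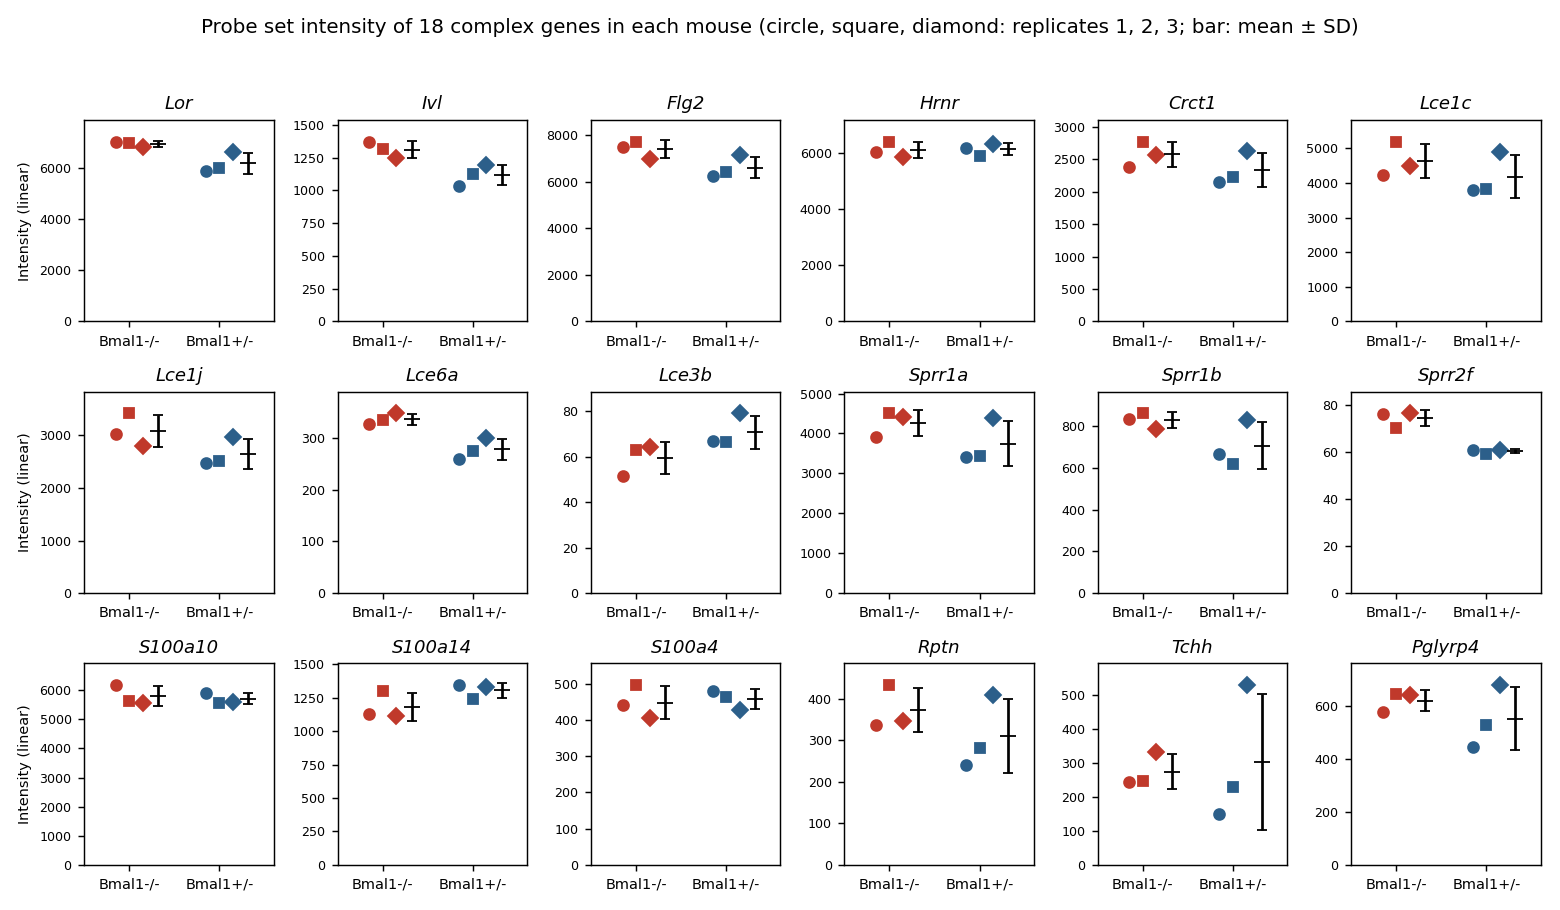
Intensity on a linear scale (vertical axes, from 0) of 18 genes of the complex in each mouse, Bmal1-/- in red on the left and Bmal1+/- in blue on the right of each panel. Circles, squares and diamonds are replicates 1, 2 and 3, and black bars are the mean ± SD of 3 mice; Lor, Ivl, Lce6a and Sprr2f do not overlap between genotypes, and Tchh spreads from 150 to 530.5 among the Bmal1+/- mice.

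The late cornified envelope genes encode small cysteine-rich proteins that join the envelope in the last steps of cornification. Lce6a had the lowest p of the complex, with intensities of 326, 334 and 347 in Bmal1-/- skin, against 259.8, 275 and 299 in Bmal1+/- skin. The groups did not overlap, and the log2 fold change was 0.26 (SE 0.08, 95% confidence interval 0.08 to 0.44, limma adjusted p = 0.36). Lce1j had 3021, 3420 and 2806 in Bmal1-/- skin, against 2471, 2508 and 2975 in Bmal1+/- skin. Bmal1+/- replicate 3 again lay inside the Bmal1-/- range, and the log2 fold change was 0.22 (limma adjusted p = 0.54). Lce1c had 4241, 5194 and 4502 in Bmal1-/- skin, against 3801, 3832 and 4893 in Bmal1+/- skin, a log2 fold change of 0.16 (limma adjusted p = 0.71). Lce1b, whose groups did not overlap either, had 1313, 1396 and 1337 in Bmal1-/- skin, against 1065, 1245 and 1309 in Bmal1+/- skin. Over the 13 Lce1 genes the log2 fold change ranged from -0.03 (Lce1l) to 0.22 (Lce1j), with a median of 0.08 and 10 above 0.

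The Lce3 genes are linked in human skin to the repair of a damaged barrier. Their 5 probe sets that name 1 gene had mean intensities of 10.7 to 84.8 in these 6 mice. The probe set that carries the symbols of all these Lce3 genes had 502.5, 521.5 and 487.9 in Bmal1-/- skin, against 442.5, 477 and 528 in Bmal1+/- skin, with overlapping groups and a log2 fold change of 0.06. Lce3b had 51.4, 62.85 and 64.4 in Bmal1-/- skin, against 66.7, 66.5 and 79.0 in Bmal1+/- skin. It was the only Lce gene with all Bmal1-/- values below all Bmal1+/- values, and the log2 fold change was -0.20 (SE 0.12, limma adjusted p = 0.67). Lce3a had 74.1, 73.7 and 59.9 in Bmal1-/- skin, against 39.6, 64.95 and 58.7 in Bmal1+/- skin, a log2 fold change of 0.29 (limma adjusted p = 0.63). Lce3e was the only probe set of the complex with values below the offset of 16, in 5 of the 6 mice, and its level has no reading here. None of the 19 Lce promoter windows held TGANTCA, 3 held TATAAA and 1, that of Lce3a, held CACGTG.

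The small proline-rich genes are the cross-bridging proteins of the envelope and are known to be induced in injured or inflamed epidermis. Sprr1a had intensities of 3901, 4504 and 4413 in Bmal1-/- skin, against 3401, 3443 and 4395 in Bmal1+/- skin. Bmal1+/- replicates 1 and 2 were below every Bmal1-/- mouse and replicate 3 was not, and the log2 fold change was 0.20 (SE 0.10, limma adjusted p = 0.62). Sprr1b had 836, 863 and 788 in Bmal1-/- skin, against 669, 619 and 833 in Bmal1+/- skin, a log2 fold change of 0.23 (limma adjusted p = 0.56). Sprr3 had 99.0, 108 and 98.2 in Bmal1-/- skin, against 83.5, 71.1 and 99.85 in Bmal1+/- skin, a log2 fold change of 0.23 (limma adjusted p = 0.63). In all 3 genes the highest Bmal1+/- mouse was replicate 3. Sprr4 had 1616, 1735 and 1791 in Bmal1-/- skin, against 1396, 1553 and 1690 in Bmal1+/- skin, with the same mouse at the top of its genotype.

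Of the 12 Sprr2 probe sets, 4 had non-overlapping genotypes. Sprr2f had 75.9, 70.2 and 76.3 in Bmal1-/- skin, against 60.9, 59.2 and 60.7 in Bmal1+/- skin. The Bmal1+/- values had a 1.03-fold range, and the log2 fold change was 0.24 (SE 0.10, 95% confidence interval 0.02 to 0.46, limma adjusted p = 0.52). Sprr2d had 233, 234 and 236 in Bmal1-/- skin, against 184.5, 179.8 and 233 in Bmal1+/- skin, so the groups were separated by less than 1 unit at the closest pair. Sprr2j-ps, annotated as a pseudogene, had 75.0, 84.7 and 87.3 in Bmal1-/- skin, against 68.7, 55.4 and 68.2 in Bmal1+/- skin, a log2 fold change of 0.30 (SE 0.11, limma adjusted p = 0.49). Sprr2b, named after its values were seen because it had the largest log2 fold change of the complex, 0.60 (SE 0.20, 95% confidence interval 0.15 to 1.05, limma adjusted p = 0.42), was among the dimmest members. It had 34.4, 42.8 and 61.5 in Bmal1-/- skin, against 36.2, 18.8 and 20.3 in Bmal1+/- skin. A brighter probe set that carries the symbols of Sprr2b and of its Sprr2a near copies had 632, 624 and 490.2 in Bmal1-/- skin, against 608, 505 and 594 in Bmal1+/- skin, a log2 fold change of 0.03. The Sprr2 genes are close copies of each other, so their probes may read each other's RNA, and single Sprr2 values are uncertain. All 16 Sprr probe sets had a log2 fold change above 0, and under quantile normalization 13 of the 16 did. Several of them are dim: Sprr2e, Sprr2f and Sprr2j-ps, with non-overlapping genotypes, had mean intensities of 99.9, 67.2 and 73.2. Y-linked Kdm5d reached 120.7 in female mice, so whether such dim probe sets read their own genes is uncertain.

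TGANTCA was in 9 of the 14 Sprr promoter windows (64.3%) and TATAAA in 10. The 31 bases around each match are shown for the Sprr genes with non-overlapping genotypes and a match, for Sprr2b and for the pair of Sprr1 genes, because they show how the motif recurs at one place among the Sprr2 copies. The match is in capitals, 5′ to 3′ on the strand of the gene, from RefSeq (GRCm38.p6), at chr3:92316498-92316528 for Sprr2b, chr3:92338935-92338965 for Sprr2d, chr3:92351938-92351968 for Sprr2e and chr3:92364978-92365008 for Sprr2f, all on the plus strand, and at chr3:92438872-92438902 for Sprr1b and chr3:92486009-92486039 and chr3:92485979-92486009 for Sprr1a, on the minus strand.
Sprr2b: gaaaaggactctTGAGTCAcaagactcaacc
Sprr2d: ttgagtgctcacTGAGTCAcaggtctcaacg
Sprr2e: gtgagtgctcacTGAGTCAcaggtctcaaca
Sprr2f: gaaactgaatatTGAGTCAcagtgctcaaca
Sprr1b: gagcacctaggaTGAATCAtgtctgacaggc
Sprr1a, first match: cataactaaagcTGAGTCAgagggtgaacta
Sprr1a, second match: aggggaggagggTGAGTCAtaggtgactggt
The 4 Sprr2 matches shown begin 193 to 197 bases before the start site and all read TGAGTCA. Sprr2h, Sprr2i and Sprr2k, whose genotypes overlapped, held TGAGTCA as well, 198, 193 and 196 bases before the start site. The motif was thus not limited to the Sprr2 genes with non-overlapping genotypes. The match of Sprr1b begins 111 bases before the start site, and those of Sprr1a begin 146 and 116 bases before it. The windows of Sprr3 and Sprr4 held no match.

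The S100 genes of the complex encode calcium-binding proteins that many skin cells make, keratinocytes, fibroblasts and immune cells among them. S100a10, the partner of annexin A2, had intensities of 6176, 5643 and 5564 in Bmal1-/- skin, against 5914, 5575 and 5607 in Bmal1+/- skin. The groups overlapped, and the log2 fold change was 0.02, with a 95% confidence interval of -0.11 to 0.16. S100a11, which is cross-linked into the envelope in keratinocytes, had 5160, 5102 and 5003 in Bmal1-/- skin, against 5368, 5213 and 5244 in Bmal1+/- skin. All Bmal1-/- values were below all Bmal1+/- values, by a log2 fold change of -0.05 (SE 0.05, limma adjusted p = 0.79), and the other S100a11 probe set gave -0.05 as well. S100a14, an epithelial S100 protein, had 1131, 1301 and 1114 in Bmal1-/- skin, against 1345, 1243 and 1328 in Bmal1+/- skin, a log2 fold change of -0.14 (SE 0.07, 95% confidence interval -0.31 to 0.02, limma adjusted p = 0.62). S100a13, which takes part in the release of fibroblast growth factor, had 604, 577 and 589 in Bmal1-/- skin, against 620.0, 602 and 611 in Bmal1+/- skin, a log2 fold change of -0.05.

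S100a4, a marker of mesenchymal cells, had 442, 497 and 407 in Bmal1-/- skin, against 481, 464 and 427 in Bmal1+/- skin, and S100a5 had 179, 204 and 215 in Bmal1-/- skin, against 208.5, 179 and 229 in Bmal1+/- skin. Both genes overlapped between genotypes, with log2 fold changes of -0.03 and -0.04. S100a7a, a mouse relative of the human antimicrobial protein psoriasin, had 237, 278 and 277 in Bmal1-/- skin, against 223, 227 and 229 in Bmal1+/- skin. It was the only S100a gene with every Bmal1-/- value above every Bmal1+/- value, and the log2 fold change was 0.20 (SE 0.09, limma adjusted p = 0.54). S100a8 and S100a9, the subunits of calprotectin, are carried into skin by neutrophils and are made by stressed keratinocytes. S100a8 had 171, 204 and 190.1 in Bmal1-/- skin, against 191, 156 and 208 in Bmal1+/- skin, a log2 fold change of 0.03. S100a9 had 104, 90.9 and 106.5 in Bmal1-/- skin, against 79.7, 74.3 and 102 in Bmal1+/- skin, a log2 fold change of 0.21 (limma adjusted p = 0.67). Over 9 neutrophil markers the summed intensity was 744 to 846 in Bmal1-/- skin and 691 to 847 in Bmal1+/- skin, with 0 called. None was at 0, but single values ran only from 36.4 (Cxcr2) to 165.5 (Csf3r). Y-linked Kdm5d reached 120.7 in female mice, so these sums may be largely background. The part of neutrophils in S100a8 and S100a9 was not tested. TGANTCA was in 2 of 15 promoter windows of the S100a genes and CACGTG in 2, those of S100a6 and S100a11.

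The 3 windows of the complex with the E-box CACGTG are shown because it is the letter sequence that BMAL1 is known to bind, with 30 bases around the match and the motif in capitals (RefSeq, GRCm38.p6), at chr3:90612896-90612925 on the plus strand for S100a6, chr3:92926372-92926401 on the minus strand for Lce3a and chr3:93520261-93520290 on the plus strand for S100a11.
S100a6: agagtttcgagtCACGTGccagaagggaaa
Lce3a: gggatctttaggCACGTGtacaggaaagca
S100a11: actgcaaatggaCACGTGcatagaaaaaga
S100a6, also called calcyclin, had intensities of 1556, 1568 and 1516 in Bmal1-/- skin, against 1715, 1470 and 1550 in Bmal1+/- skin, and its log2 fold change was -0.03. The log2 fold changes of Lce3a and S100a11 were 0.29 and -0.05. The 3 genes lay on both sides of 0, none passed the test, and Lce3a is dim, with a mean intensity of 61.8. The S100a6 match lies after the start site, and those of Lce3a and S100a11 begin 159 and 223 bases before it. Whether the motif bears on these values was not tested.

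Pglyrp3 and Pglyrp4 encode secreted proteins that bind the peptidoglycan of bacteria. Pglyrp3 had intensities of 337, 332 and 325 in Bmal1-/- skin, against 269, 293 and 342 in Bmal1+/- skin. Pglyrp4 had 576, 647 and 640.1 in Bmal1-/- skin, against 445, 530.0 and 679.6 in Bmal1+/- skin. In both genes the Bmal1-/- values lay close together and the Bmal1+/- values spread from the lowest to the highest of the 6 mice, replicate 1 being the lowest and replicate 3 the highest. The log2 fold changes were 0.14 and 0.19 (limma adjusted p = 0.71 and 0.72). Among neighbours of the cluster that the symbols above do not take in, Kprp, a keratinocyte proline-rich protein, had a log2 fold change of 0.13 and Lelp1 one of 0.34 (limma adjusted p = 0.37), with all 3 Bmal1-/- values of Lelp1 above all Bmal1+/- values.

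Within a genotype, the same mice stood at the top and at the bottom for many genes of the complex. Their median SD within genotype was 0.14 on the log2 scale, against 0.11 over all probe sets tested. Bmal1+/- replicate 3 was the highest of its genotype in 41 of the 62 probe sets (66.1%), against 46.9% of all tested, and Bmal1+/- replicate 1 was the lowest in 35 (56.5%), against 35.4%. Among the 13 Lce1 genes, Bmal1+/- replicate 1 was the lowest of its genotype in 13 and Bmal1-/- replicate 2 the highest of its own in 12. Relative to the mean of the 6 mice, the median Lce1 gene lay at -0.07, 0.18 and 0.04 in Bmal1-/- replicates 1, 2 and 3, against -0.20, -0.03 and 0.13 in Bmal1+/- replicates 1, 2 and 3. The median S100a gene stayed between -0.03 and 0.01 in Bmal1-/- skin and between -0.04 and 0.04 in Bmal1+/- skin. These probe sets share an array in each mouse and are no independent replicates.

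**Figure D3:**
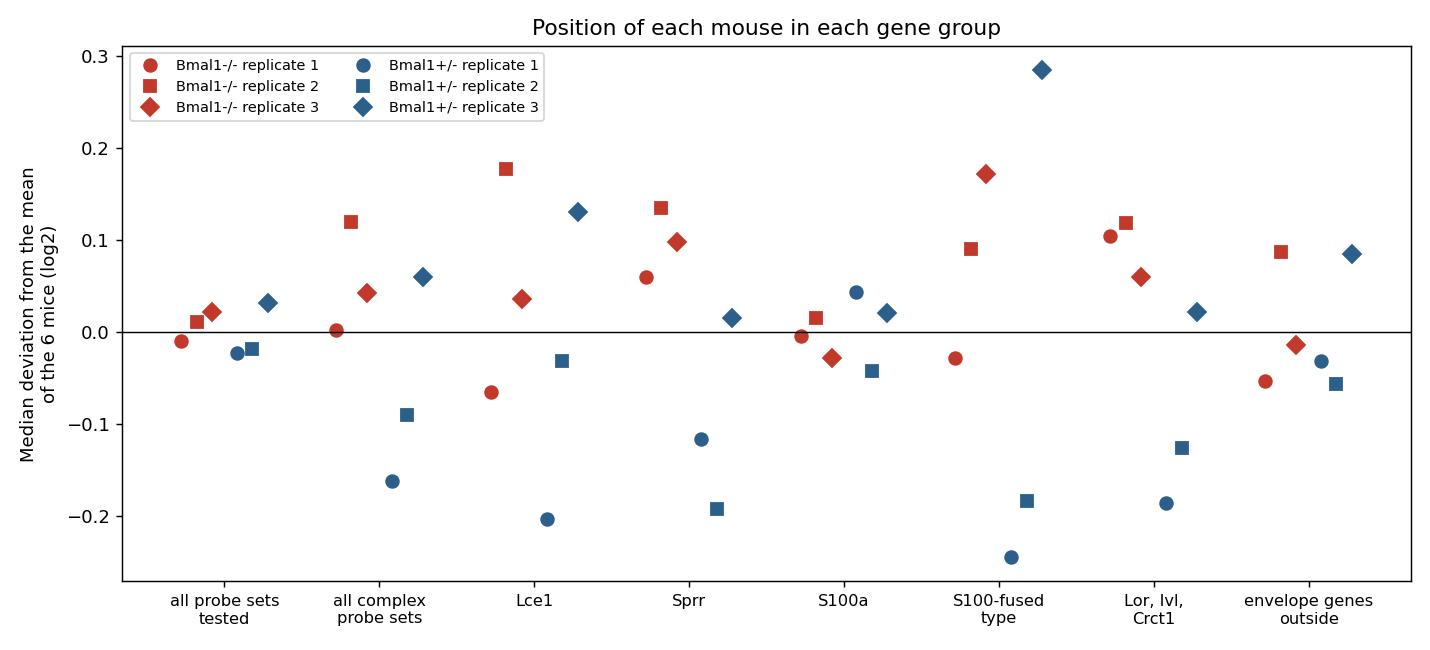
Median deviation from the mean of the 6 mice on the log2 scale (vertical axis) over each gene group (horizontal axis), 1 point per mouse, Bmal1-/- in red left of Bmal1+/- in blue. The Lce1 genes run from -0.20 in Bmal1+/- replicate 1 to 0.18 in Bmal1-/- replicate 2, while the S100a genes and all probe sets tested stay within 0.05 of 0.

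Since 1 mouse could carry much of a small shift, the comparison was repeated without each mouse. The median log2 fold change of the complex was 0.07 without Bmal1+/- replicate 1 and 0.20 without Bmal1+/- replicate 3. Over all tested it was 0.002 and 0.03 in these fits, with 50.9% and 57.9% above 0. The number of probe sets higher at an unadjusted p under 0.05, which was 10 with all mice, was 25 without Bmal1+/- replicate 3. It was 4 without Bmal1+/- replicate 1, 4 without Bmal1+/- replicate 2, 4 without Bmal1-/- replicate 2 and 6 without Bmal1-/- replicate 3. The share of all tested probe sets at that threshold was not counted in these fits, so the change in number cannot be assigned to the complex. None of these fits had a probe set of the complex at an adjusted p under 0.05. The Lce median depended on the mouse left out: it was 0.01, with 11 of 20 above 0, without Bmal1+/- replicate 1, and 0.04 without Bmal1-/- replicate 2, 0.16 without Bmal1-/- replicate 1 and 0.20 without Bmal1+/- replicate 3. The Sprr median stayed between 0.14 and 0.21, with 13 to 16 of 16 above 0. The S100a median was -0.03 without Bmal1-/- replicate 2 and -0.02 without Bmal1+/- replicate 2, and stayed between 0.00 and 0.03 without each of the other mice. Bmal1+/- replicate 1 is the only male, so sex and this mouse cannot be told apart.

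**Figure D4:**
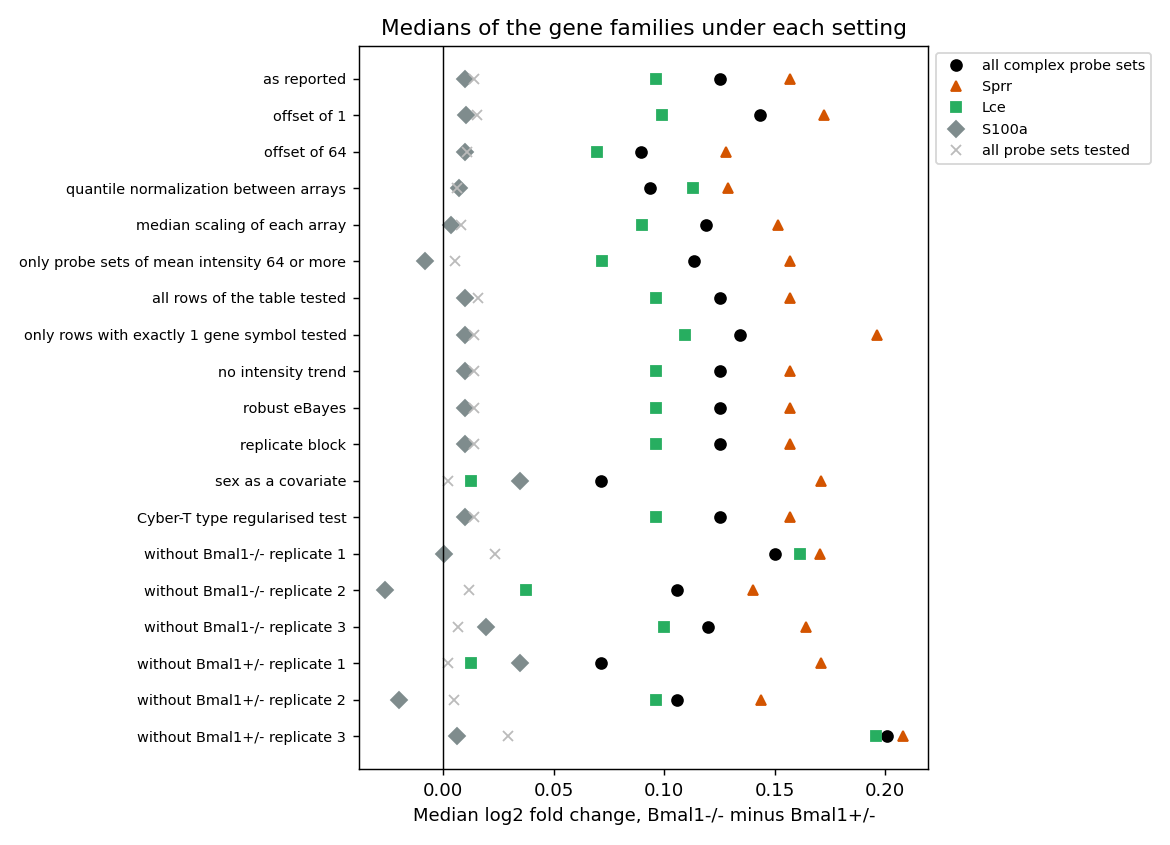
Median log2 fold change, Bmal1-/- minus Bmal1+/- (horizontal axis), of the complex, of the Sprr, Lce and S100a families and of all probe sets tested (symbols) under each setting (rows). The Sprr median lies between 0.13 and 0.21 throughout, the Lce median comes down to 0.01 without Bmal1+/- replicate 1, and the S100a median stays near 0.

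Outside the complex, 27 of 30 cornified envelope and barrier genes were measured, with 0 called, a median log2 fold change of 0.00 and 14 above 0. Their 2 largest log2 fold changes were those of Tgm5, a transglutaminase (-0.42, limma adjusted p = 0.27), and Cst6, a protease inhibitor of the cornified layer (0.21). The suprabasal keratins Krt1 and Krt10 had -0.14 and -0.03. Bmal1-/- replicate 2 and Bmal1+/- replicate 3 were the highest of their genotype here as in the Lce1 genes, with medians relative to the 6 mice of -0.05, 0.09 and -0.01 in Bmal1-/- replicates 1, 2 and 3, against -0.03, -0.06 and 0.08 in Bmal1+/- replicates 1, 2 and 3. Of 23 transcription factors of epidermal differentiation, 21 were measured, with 0 called and a median of 0.00, the largest values being -0.22 for Gata3 and -0.21 for Tfap2c. The 7 markers of basal keratinocytes had a median of -0.09 and a summed intensity of 30460 to 33910 in Bmal1-/- skin and 33200 to 36210 in Bmal1+/- skin, with 0 called. The 8 markers of stressed epidermis had a median of 0.17 and a summed intensity of 4739 to 4952 in Bmal1-/- skin and 4008 to 5079 in Bmal1+/- skin, with 0 called. Among them Krt6a had 952, 879.5 and 1010 in Bmal1-/- skin, against 601, 657 and 1007 in Bmal1+/- skin, a log2 fold change of 0.36 (limma adjusted p = 0.58), and Krt16 had 0.33. No marker of either list was at 0, but Serpinb3a had 12.8 to 16.6 and Defb4 had 25.3 to 40.2, levels that may be background. The part of these compartments in the values of the complex was not tested.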

How the data were processed

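Each of the 3 Bmal1-/- and 3 Bmal1+/- mice gave dorsal skin RNA for 1 Affymetrix array, with groups, replicate numbers and sexes from the labels. The authors deposited 1 linear intensity value per probe set and array, and the submitters' processing notes name PLIER 2.0 and Affymetrix Expression Console 1.1. For the build, the scaling of arrays and any background correction, nothing was given in the sources used here. Array medians lay between 219 and 235.5, and 2.58% to 3.34% of values were below 16. No column was left unmapped. The number of arrays limits the precision.

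No further normalization was applied. The 23410 probe sets with a gene symbol (21789 with 1, 1621 with several) entered limma 3.58.1 (R 4.3.3) on the scale log2(intensity + 16), with lmFit and eBayes with an intensity trend and no covariate; the 12147 without a symbol were left out. The procedure was run on simulated data whose added changes were all larger than the median shift of the complex, so that run does not bear on changes of that size. The probe sets of the complex and the gene lists (cornified envelope, transcription factors, S100 genes, neighbours, and markers of basal and stressed keratinocytes, hair follicle, neutrophils, macrophages, muscle, adipocytes, fibroblasts, Schwann cells and melanocytes) were chosen with earlier results of these data known. Values per mouse are given for the 8 members of highest mean intensity, the 6 members with the highest and the 6 with the lowest log2 fold change among those of mean intensity 64 or more, and listed structural genes, along with further members chosen after their values were seen. Alternatives changed the offset, the normalization, the rows tested, the dim filter, the test, the variance model, the replicate block, the sex term or left out 1 mouse. The Cyber-T type test averaged variances over 101 neighbouring probe sets, at a prior weight of 10. Promoter windows and gene order came from RefSeq tables (GRCm38.p6), and protein sequences were not used here. Figures were drawn with matplotlib 3.10.9 in Python 3.11.15.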

Additional observations from a re-analysis of the deposited data

How the results depend on the processing

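No setting gave a probe set of the complex at an adjusted p under 0.05 in either direction. The number higher at an unadjusted p under 0.05, 10 as reported, was 6 without the intensity trend, 4 with sex as a covariate and 4 to 25 on leaving out 1 mouse. The number lower, 0 as reported, was 1 with quantile normalization and 0 to 1 on leaving out 1 mouse. The shares of all tested probe sets at an unadjusted p under 0.05 were not counted under these alternatives. The median log2 fold change of the complex, 0.13, was 0.07 to 0.20 on leaving out 1 mouse. Over all probe sets tested, the 23 higher and 31 lower became 15 and 19 when all rows were tested, 11 and 16 without the intensity trend, 96 and 177 with the Cyber-T type test, and 13 to 23 and 22 to 34 on leaving out 1 mouse. The causes were not tested.

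Of the 24 named members, 19 kept the sign of their log2 fold change under all 18 alternatives, and none passed the threshold under any. Some of the 24 were named for a large rise or fall, which favours a kept sign. Changing the rows tested, the dim filter, the test, the variance model or the replicate block leaves each log2 fold change as it was, so those alternatives could not turn a sign. The other 5 turned on leaving out 1 mouse. S100a4, -0.03 as reported, ranged from -0.10 to 0.035 and turned without Bmal1-/- replicate 3 and without Bmal1+/- replicate 1. Tchh, 0.03 as reported, ranged from -0.35 to 0.51 and turned without Bmal1-/- replicate 3, Bmal1+/- replicate 1 or Bmal1+/- replicate 2. S100a5, -0.04 as reported, ranged from -0.13 to 0.037 and turned without Bmal1-/- replicate 1 and without Bmal1+/- replicate 3. Hrnr, -0.01 as reported, ranged from -0.042 to 0.021 and turned without Bmal1-/- replicate 1, Bmal1-/- replicate 3 or Bmal1+/- replicate 3. S100a10, 0.02 as reported, ranged from -0.024 to 0.051 and turned without Bmal1-/- replicate 1. With sex as a covariate, which gives the same log2 fold changes as leaving out the male, S100a4 was 0.006 and Tchh -0.35. With the replicate block, 8 probe sets of the complex were higher at an unadjusted p under 0.05 and 0 at an adjusted p, and 20 were higher and 34 lower over all tested. Same-numbered mice of the 2 genotypes had correlations of deviations of 0.08, -0.35 and 0.06. Differently numbered mice of the 2 genotypes had correlations from -0.26 to 0.26. The litter of each mouse was not given in the sources used, and these correlations cannot tell whether same-numbered mice were paired.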

Other observations

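Other cell types of the skin were read through marker lists, and none of their genes was called at an adjusted p under 0.05 by limma. The 7 macrophage and dendritic cell genes had a median log2 fold change of -0.12, with 0 above 0, where 54.7% of all tested were. Cd68, a lysosomal protein of macrophages, had -0.19. Bmal1-/- replicate 1 stood apart. Relative to the mean of the 6 mice, the median of these genes lay at -0.29, 0.09 and 0.08 in Bmal1-/- replicates 1, 2 and 3. In Bmal1+/- replicates 1, 2 and 3 it lay at 0.06, 0.01 and 0.10. The 6 fibroblast genes had a median of -0.14, with Lum, a collagen-binding proteoglycan, at -0.18 and Col1a2 at -0.16. The 6 adipocyte genes had a median of 0.13, with 5 above 0. Lep, which encodes the fat hormone leptin, was the exception, at -0.87. It had 86.3, 467 and 689 in Bmal1-/- skin, against 675, 584 and 493 in Bmal1+/- skin. Bmal1-/- replicate 1 was thus the lowest of the 6 mice for Lep. The same mouse was the highest of the 6 for Retn (3589) and Plin1 (2311), whose log2 fold changes were 0.43 and 0.24. The 8 muscle genes had a median of -0.01. The 4 measured Schwann cell and melanocyte genes had a median of -0.19. For Dct and Tyrp1, which encode enzymes of pigment synthesis, all 3 Bmal1-/- values lay below all 3 Bmal1+/- values. Dct had 604, 533 and 474 in Bmal1-/- skin, against 1076, 785 and 728 in Bmal1+/- skin, a log2 fold change of -0.65 (limma adjusted p = 0.15). Tyrp1 had 267, 251 and 237 in Bmal1-/- skin, against 346, 323 and 331 in Bmal1+/- skin, a log2 fold change of -0.39 (limma adjusted p = 0.12). For Mlana, another pigment cell gene, the groups overlapped and the log2 fold change was 0.03. The 3 S100 genes outside the complex had a median of 0.07, S100g being the highest at 0.17.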
